A study of Callithrix jacchus with 39 samples.

Results

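The ZNF genes of the common marmoset (Callithrix jacchus) were examined as a family in RNA sequencing counts from 39 libraries, 18 of embryonic stem cells (ESCs) and 21 of early embryos. A gene was taken as a member if its marmoset symbol was ZNF followed by a digit and if its mean level reached 5 CPM (a gene's count divided by the library total, times 1000000) in at least 1 of 13 groups. This rule kept 201 of 221 ZNF symbols, out of 30811 genes in the count table and 13208 genes that reached 5 CPM in a group. Just outside the threshold were ZNF829 (4.30 CPM in its highest group), ZNF81 (4.34 CPM) and ZNF365 (4.65 CPM), and just inside were ZNF624 (5.13 CPM), ZNF862 (5.18 CPM) and ZNF75D (5.28 CPM). Members were thus chosen by their CPM levels in these libraries, and levels below are a description that carries no test.

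Each of the 13 groups had 3 libraries. The 7 embryo groups were whole morulae, the inner cell mass (ICM) at 5 stages titled early blastocyst, blastocyst, expanded, hatching and hatched blastocyst, and the epiblast after implantation. ESCs made up 6 groups: primed cells under the titles DSY127, No.40, DSY-c2_P_Tg and N40_P_Tg, and naive cells under DSY-c2_N_TgON and N40_N_TgOFF. The labels give no genotype, treatment or age and do not define Tg, TgON or TgOFF, so the state of the Tg and the line cannot be told apart in a comparison between the naive groups. Nothing in them states that the 3 libraries of a group are independent cultures or embryos, so each p-value reflects library-to-library spread, part or all of which may be technical.

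Most proteins of this family carry C2H2 zinc fingers, which bind DNA and often determine where the protein sits in the genome. Many also carry a KRAB domain, which recruits TRIM28 (KAP1) and with it the histone methyltransferase SETDB1, so that the bound site is marked with repressive chromatin. KRAB zinc finger proteins are best known for silencing transposable elements and keeping imprints in the early embryo and in pluripotent cells. The symbol ZNF also covers proteins of other kinds, such as ZNF185, a LIM domain protein bound to the actin cytoskeleton, and ZNF598, a ubiquitin ligase that acts on collided ribosomes. Numbers in the symbol carry no order or kinship.

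Total counts were 38836947 to 78726217 per ESC library and 45257233 to 59037179 per embryo library. Genes with 10 or more counts numbered 12712 to 13880 in morula, 11604 to 14498 in ICM, 15042 to 15076 in epiblast and 15613 to 16722 in ESC libraries. Members at 1 CPM or more numbered 166 to 180, 149 to 183, 187 to 189 and 194 to 199 in the same order. Of 8 naive markers with a symbol, all 8 rose in naive against primed cells of both lines, and of 6 primed markers 6 fell in DSY-c2 and 5 in N40 (edgeR adjusted p under 0.05). Markers of other cells moved with these groups: the summed level of 5 fibroblast markers was 348 to 424 CPM in primed and 58.7 to 156.6 CPM in naive DSY-c2, and 606.5 to 869 CPM in primed and 150.4 to 328 CPM in naive N40, while the sum of 5 mesoderm markers was 51.4 to 292 CPM in primed and 2.67 to 2.96 CPM in naive DSY-c2. Of the 5 fibroblast markers 3 fell in naive DSY-c2, but in naive N40 2 rose and 2 fell, with a median of 2.1 on the log2 scale, and COL1A1 alone made up a mean of 616 of 736 CPM in primed and 165 of 211 CPM in naive N40. Of 7 primitive endoderm markers 3 rose and 1 fell in naive N40 although their sum went from 1278 to 1393 CPM in primed to 271.9 to 348.8 CPM, and 2 rose and 2 fell in naive DSY-c2. Of 5 trophectoderm markers 4 rose and 1 fell in naive N40 (median 3.34), and 2 rose and 1 fell in naive DSY-c2. In the embryo, the fibroblast sum was 0 to 28.9 CPM over the 15 ICM libraries and 1292 to 1456 CPM in the epiblast, where all 5 rose, and DCN, which marks fibroblasts, was at or near 0 in every ICM group. Replicate 1 of the hatched ICM stood apart, with a trophectoderm marker sum of 1308 CPM and a pluripotency marker sum of 559 CPM. The part of these cells and of that library in the ZNF results was not tested except where a value without the library is given. In such bulk samples, fewer cells of a type and less RNA per cell cannot be told apart.

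Over the 13 groups, ZNF levels were highest in the morula and lowest in the ICM stages after the early blastocyst. The summed level of the 201 members was 9106 to 10960 CPM in the 3 morula libraries, 5781 to 7391 CPM in early ICM and 4185 to 6167 CPM in the later ICM stages. Epiblast libraries reached 6601 to 6758 CPM. In ESCs the sum was 5829 to 6183 CPM in primed and 6093 to 6334 CPM in naive DSY-c2, which overlapped, and 5519 to 5867 CPM in primed and 7172 to 7527 CPM in naive N40, which did not. The median level of a member was 21.9 CPM in morula and 10.2 to 10.8 CPM in the later ICM stages. Over all 13208 genes the median was 18 CPM in morula and 18.6 to 21.1 CPM in those stages.

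The morula was the group of the highest mean for 76 members (37.8%, against 14.9% of all genes at 5 CPM). The epiblast held the highest mean of 30 members (14.9%, against 17.6%), and naive N40 cells that of 30 (14.9%, against 8.24%). Another 28 members were highest in 1 of the 5 ICM groups. Most members were spread widely: 105 reached 5 CPM in all 13 groups, 9 did so in a single group, and in only 3 (ZNF750, ZNF280A and ZNF80) did the highest group hold more than 50% of the sum of the group means. The median share of the highest group was 17.4%, against 16.6% over all genes. With TMM-scaled libraries in place of plain CPM, 185 of the 201 members kept their highest group.

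**Figure D1:**
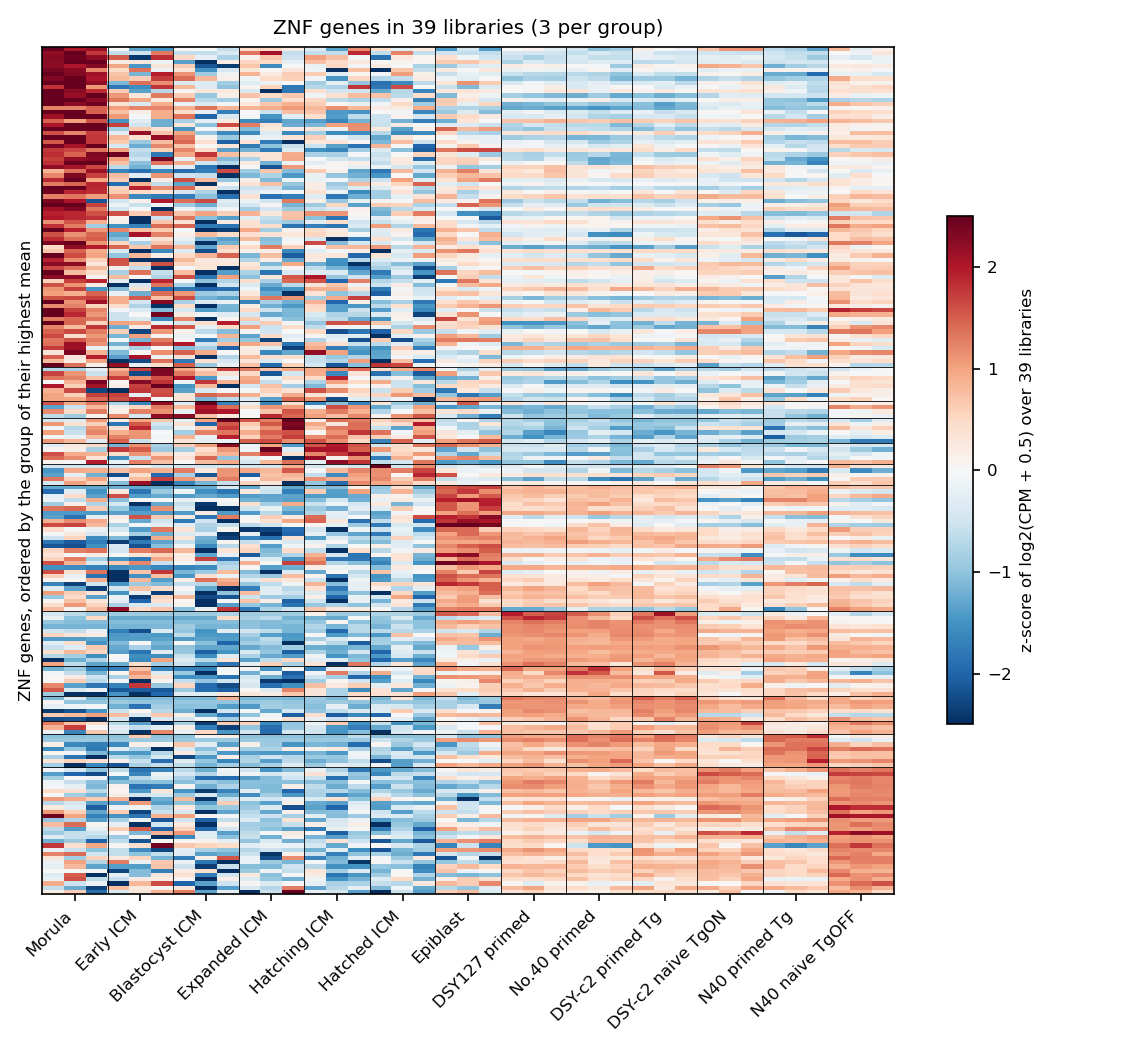
Rows are the 201 ZNF genes ordered by the group of their highest mean, columns the 39 libraries with 3 per group, and colour the z-score of log2(CPM + 0.5) of a gene over all libraries. Red is above and blue below a gene's mean: the top block of 76 genes is reddest in the 3 morula libraries, and the lowest block of 30 genes in naive N40 cells.

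**Figure D2:**
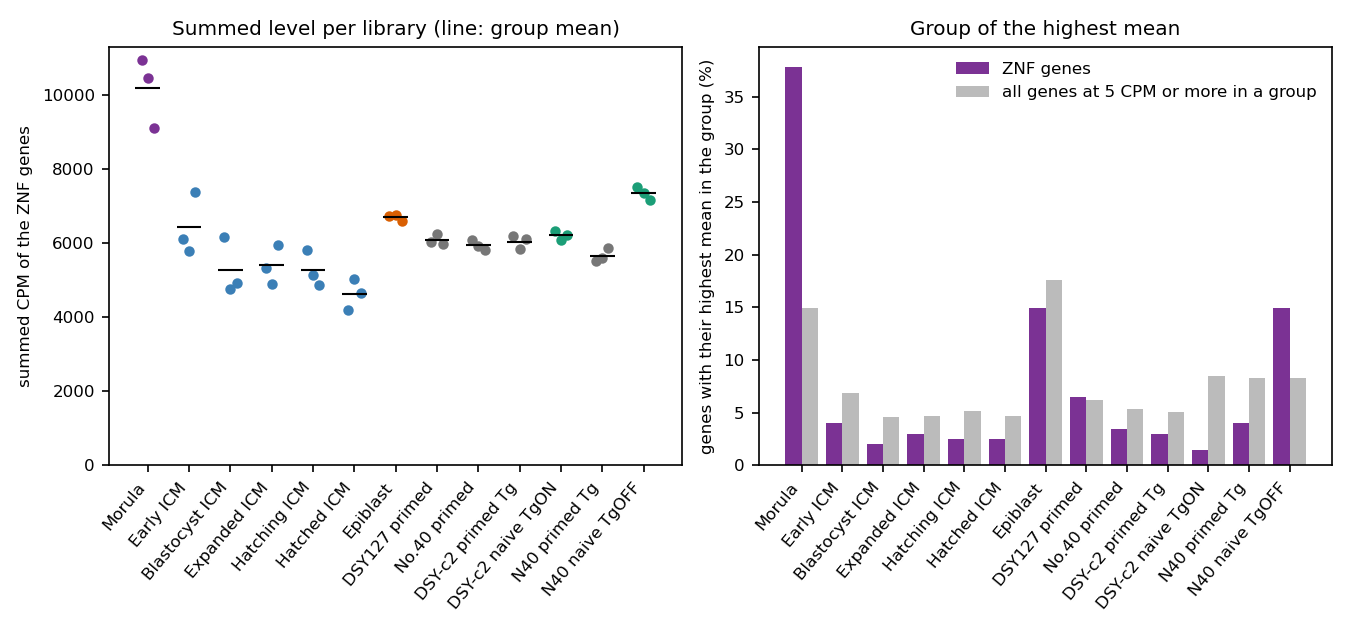
The left panel gives the summed CPM of the 201 ZNF genes in each library, with a line at the mean of 3, and the right panel the percent of ZNF genes and of all genes at 5 CPM or more whose highest mean lies in each group. The morula libraries lie at 9106 to 10960 CPM, above every other library, and hold the highest mean of 37.8% of the ZNF genes against 14.9% of all genes.

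ZNF207 was at 531, 495 and 363 CPM in morulae, 524, 571 and 600.3 CPM in epiblast, 309.7, 314 and 318 CPM in primed N40 and 290.2, 245 and 246 CPM in naive N40, and it was called in none of the comparisons between groups. CPM is not scaled by gene length, so levels of different genes are not compared. Few members leaned toward a single ESC group. ZNF521 was highest in DSY127, which held 33.2% of the sum of its group means, ZNF697 in primed N40 (35.5%), ZNF385A in No.40 (26.5%), and ZNF710, ZNF318 and ZNF518B in naive N40 (24.6%, 24.2% and 23.0%). Among ICM groups ZNF467 was highest in hatching blastocysts (30.7%) and ZNF414 in early ones (22.5%).

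ZNF280A, a morula-high member that reaches low levels elsewhere, was at 60.2, 21.7 and 25 CPM in the 3 morulae. It was at 1.92, 0.0773 and 0 CPM in early ICM and at 0.0191, 0.978 and 0.0567 CPM in epiblast. All morula libraries lay above all others, and 57.7% of the sum of the group means was in the morula. ZNF684 was also highest there, at 41.5, 47.8 and 40.3 CPM, against 7.04, 4.42 and 2.88 CPM in epiblast and 2.66, 2.02 and 2.6 CPM in DSY127. By contrast ZNF251, the member with the smallest range of group means (0.98 on the log2 scale), was at 90.9, 90.9 and 104 CPM in morulae and 53, 57.8 and 56 CPM in DSY127. Other members of small range were ZNF410, an activator of CHD4 (1.01), and ZNF207, a spindle assembly protein (1.17).

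Which ZNF genes changed as the morula gave way to the early ICM was tested with edgeR's quasi-likelihood method, with Benjamini-Hochberg adjustment over all genes. Of 200 members tested, 12 (6%, against 6.16% of all genes) were called at an adjusted p under 0.05, 10 lower and 2 higher. The direction was uneven, since 5.0% of members fell against 2.27% of all genes, and 1.0% rose against 3.89%. The median member change was −0.53 on the log2 scale, against 0 for all genes, or −0.57 with the 9 members whose libraries were all at 0 in a group set at a floor of 3 counts over that group or, for 3 of them, left out. DESeq2 called 37 members, 31 lower and 6 higher, against 2763 of 16929 genes, 1434 lower and 1329 higher.

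ZNF620 fell by 1.66 ± 0.33 (SE) on the log2 scale (edgeR adjusted p = 0.00656), from 178, 120.3 and 132 CPM in morulae to 43.1, 28.4 and 58.2 CPM in early ICM, without overlap. ZNF512 was at 562, 419.5 and 354 CPM in morulae and 224, 204 and 157 CPM in early ICM. It fell by 1.11 ± 0.26 (edgeR adjusted p = 0.0184). ZNF281, a factor that binds the NANOG promoter, went from 186, 191 and 131 CPM to 67, 92.7 and 84 CPM and fell by 0.98 ± 0.24 (edgeR adjusted p = 0.021). Other falls without overlap were those of ZNF569 (by 2.55), ZNF322 (by 2.31), ZNF256 (by 2.05), ZNF526 (by 1.69), ZNF16 (by 1.48) and ZNF709 (by 1.28). ZNF839 was called lower, with 19.2, 2.36 and 3.23 CPM in morulae and 0, 0.0386 and 0 CPM in early ICM, too few counts in the latter for a fold. ZNF414 rose by 2.76 ± 0.44 (edgeR adjusted p = 0.00145), from 20.1, 18.7 and 29.3 CPM to 67.9, 137 and 232 CPM. The other rise, that of ZNF318 by 1.91 ± 0.51, came with overlapping libraries.

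These calls were few and fragile. With 1 library left out, 3 of the 12 (ZNF414, ZNF620 and ZNF839) stayed called in all 6 cases, and the share called was 3% without morula replicate 1, 1.99% without morula replicate 2, 3.48% without morula replicate 3 and 3.98% without early ICM replicate 3. With a fit of these groups alone it was 1.07%. All-gene calls fell as well, from 1042 of 16929 to 513 of 17730, 581 of 17727 and 780 of 17743 without morula replicates 1 to 3. They were 731 of 17802 without early ICM replicate 3 and 213 of 12949 with these groups alone. Across the 5 ICM stages no member was called by the edgeR F test (0 of 200, against 0.295% of all genes). At an unadjusted p under 0.05 were 22 members, against 2793 of 16929 genes. DESeq2 called 14 members, against 1150 of 16929 genes.

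The epiblast was then set against the mean of the 5 ICM groups. In this comparison 41 members rose and 13 fell (27% of 200, against 44.8% of all genes), with 20.5% rising against 26.1% of all genes and 6.5% falling against 18.7%. Under TMM the median change was 0.49 on the log2 scale against 0.20 for all genes. With the size factors of DESeq2 the median of all genes was 0.44. The members' median under that scaling is not given here, so 0.49 is not to be read against 0.44. Single values are best read with this shift between scalings in mind. Of the calls, 30 rises and 9 falls held when each of 18 libraries was left out in turn, and without hatched ICM replicate 1 there were 43 rises and 11 falls. Fibroblast and mesoderm marker sums were higher in the epiblast (mesoderm 102.8 to 107.2 CPM, against at most 10.6 CPM over the ICM libraries), and their part in these differences was not tested.

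This comparison and that of early ICM with morula share the early ICM libraries. The largest rises were in genes near 0 in the ICM. ZNF462, which keeps lineage genes repressed in pluripotent cells through H3K9 methylation, was at 49.7, 29.8 and 41.6 CPM in epiblast. Over the 15 ICM libraries its lowest, median and highest levels were 0, 0.0386 and 1.66 CPM. It rose by 7.98 ± 1.28 (edgeR adjusted p = 0.000168), a fitted value that depends on the few ICM counts. ZNF423, a multi-finger cofactor of neural and fat cell precursors, was at 89.5, 107 and 127 CPM in epiblast, against 0, 0.0442 and 10.8 CPM in ICM, and held 46.5% of the sum of its group means there. It rose by 7.49 ± 1.41 (edgeR adjusted p = 0.000583). Its paralogue ZNF521 was at 13.7, 11.7 and 4.56 CPM in epiblast and at most 1.55 CPM in ICM.

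ZNF185 was at 11.6, 14.9 and 12.5 CPM in epiblast and was listed at 0 in 12 of 15 ICM libraries, with a highest value of 0.441 CPM. ZNF711, which binds promoters together with the demethylase PHF8, was at 8.34, 9.86 and 7.89 CPM in epiblast and at most 2.10 CPM in ICM. All 5 of these genes were without overlap between epiblast and ICM. Also without overlap were the rises of ZNF516 (7.03), ZNF827 (5.49), ZNF300 (4.10), ZNF608 (3.66) and ZNF12 (3.10).

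The largest fall was that of ZNF296, a KLF4-binding protein of pluripotent cells. ZNF296 was at 18, 18 and 16.3 CPM in epiblast, against 106, 401 and 849 CPM as lowest, median and highest in ICM, and fell by 4.69 ± 0.51 (edgeR adjusted p = 3.53e-06). Its mean was highest in the morula, at 719, 715 and 1105 CPM by library, although not all of these lay above the highest ICM library. Early ICM libraries were at 490.4, 689 and 703 CPM. The morula and early ICM ranges did not overlap, but that difference was not called (−0.36 ± 0.46, edgeR adjusted p = 0.696). Other falls without overlap were those of ZNF414 (by 1.91), ZNF692 (by 1.84), ZNF264 (by 1.57), ZNF777 (by 1.45) and ZNF598 (by 1.26). Over all 7 embryo stages the F test called 69 of 200 members (34.5%, against 38.0% of all genes).

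**Figure D3:**
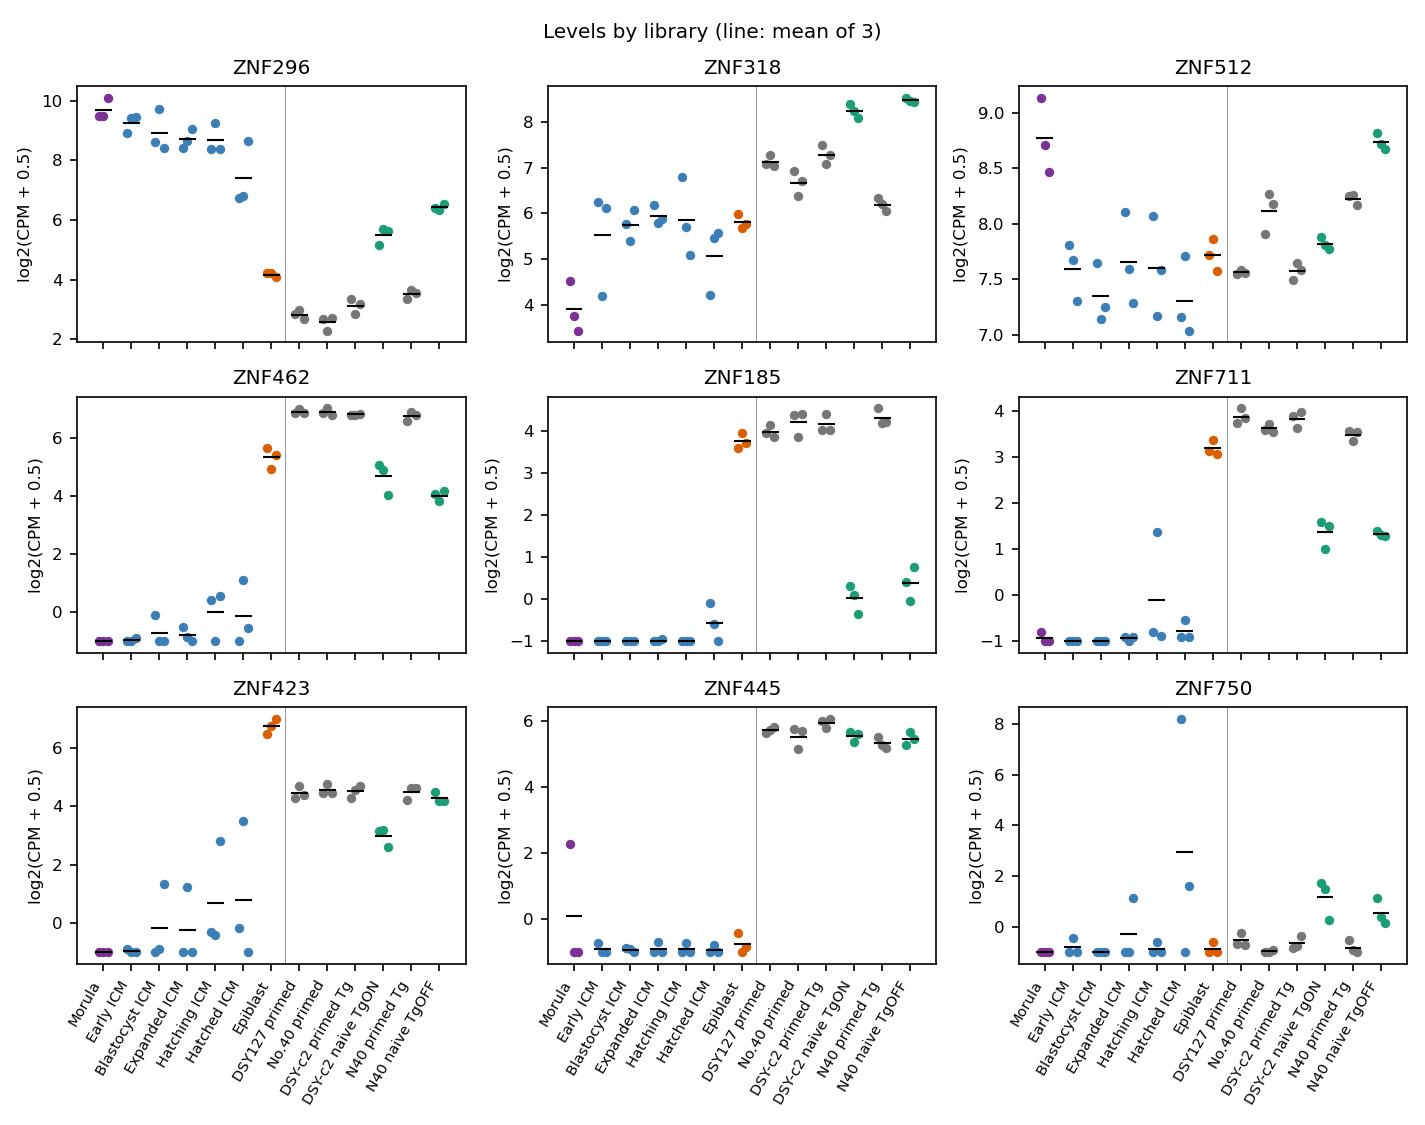
Each panel gives log2(CPM + 0.5) of 1 ZNF gene in every library, with a line at the mean of 3 on that scale and a vertical rule between embryo and ESC groups. ZNF296 is highest in morula at 715 CPM or more and lowest of the embryo groups in epiblast, and is higher in naive than in primed cells, whereas ZNF462, ZNF185 and ZNF711 lie near the bottom in morula and ICM and are lower in naive than in primed cells.

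In ESCs, naive cells were compared with primed cells of the same titled line. In DSY-c2, 74 members rose and 43 fell (117 of 201, 58.2%, against 58.8% of all genes), and 104 of the calls were without overlap. In N40, 116 members rose and 26 fell (142 of 201, 70.6%, against 61.0% of all genes), 132 without overlap. In N40 57.7% of members rose against 32.3% of all genes, and 12.9% fell against 28.7%. In DSY-c2 the figures were 36.8% against 29.6% and 21.4% against 29.3%. Changes of 2-fold or more numbered 18 rises and 15 falls in DSY-c2 and 42 rises and 13 falls in N40. Calls without overlap and changes of 2-fold or more were counted for members only. These counts have no share of all genes to be read against and are not a result about the family.

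The balance in DSY-c2 depended on the scaling. With total counts as library sizes, 51 members rose and 50 fell, against 4127 and 6079 of 17957 genes. The median of all genes moved from 0.03 to −0.13. In N40 the split under total counts was 107 and 32, against 5181 and 5659 of 17957 genes. In the column headers, all DSY-c2 primed libraries and naive replicates 1 and 2 carry the suffixes L6 and L7. What the suffixes stand for is not stated. Without naive replicate 3, which has other suffixes, 63 members rose and 42 fell, against 4783 and 4955 of 18324 genes. Without primed replicate 4, 64 rose and 38 fell, against 4863 and 4992 of 18342 genes. Without N40 naive replicate 1, 94 rose and 33 fell, against 4857 and 5456 of 18297 genes.

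Most members that rose in DSY-c2 also rose in N40. In both lines 72 rose, which is 97.3% of the DSY-c2 rises and 62.1% of the N40 rises, and 24 fell, which is 55.8% of the DSY-c2 falls and 92.3% of the N40 falls. ZNF454 and ZNF518A were called in opposite directions, and 40 members were called in neither line. Pearson's r between the effects was 0.793 across 201 genes, which are not independent replicates. Over the 13163 genes tested that reached 5 CPM in a group, 29.3% rose in both lines, against 35.8% of members, and 22.3% fell in both, against 11.9%. The rises in both were 79.0% of the DSY-c2 and 76.0% of the N40 rises among those genes, the falls in both 77.4% and 75.8% of the falls, and r was 0.801, near that of the members. The count that rose in both was 62 without DSY-c2 primed replicate 4 and 65 without N40 naive replicate 1.

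ZNF296 rose in both lines. It was at 9.55, 6.69 and 8.47 CPM in primed and 35.6, 51.6 and 49.3 CPM in naive DSY-c2, and at 9.55, 12 and 11.3 CPM in primed and 84.2, 79.4 and 92.8 CPM in naive N40. Naive libraries lay above primed ones in both lines, and all lay below the lowest ICM library. It rose by 2.63 ± 0.18 on the log2 scale in DSY-c2 (edgeR adjusted p = 6.15e-09) and by 3.06 ± 0.18 in N40 (edgeR adjusted p = 1.1e-09), a difference of −0.43 ± 0.24 that was not called (edgeR adjusted p = 0.247).

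ZNF318, a nuclear protein that modulates androgen receptor activity, was at 179, 134 and 154 CPM in primed and 337, 301 and 272 CPM in naive DSY-c2. In N40 it was at 79.6, 72.7 and 65.6 CPM in primed and 369.8, 352 and 347 CPM in naive cells. All naive libraries lay above all primed ones, and the N40 primed libraries were the lowest of the 4 groups. It rose by 1.12 ± 0.13 in DSY-c2 and by 2.39 ± 0.13 in N40, and the effects differed by −1.27 ± 0.18 (edgeR adjusted p = 0.000302). ZNF217, a protein of the CoREST repressor complex, likewise rose by 0.89 ± 0.10 and by 1.47 ± 0.10.

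Other large rises shared by the lines were those of ZNF337 (2.13 in DSY-c2 and 1.48 in N40), ZNF280A (1.90 and 2.90), ZNF34 (1.82 and 2.22), ZNF438 (1.70 and 1.87), ZNF428 (1.55 and 1.56), ZNF624 (1.46 and 1.44), ZNF597 (1.43 and 1.63) and ZNF710 (1.19 and 0.94). ZNF750, an epidermal differentiation factor, was called in both lines (3.86 and 3.91) from low levels, at 2.83, 2.32 and 0.694 CPM in naive DSY-c2 and 1.72, 0.797 and 0.615 CPM in naive N40. Its membership rests on 1 library, hatched ICM replicate 1, with 294 CPM against 0 and 2.55 CPM in the other hatched ICM libraries. Its N40 value was 6.12 without N40 primed replicate 1 and 3.26 to 4.18 without any other N40 library, all called.

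ZNF462 fell in both lines. It was at 110.0, 109 and 113 CPM in primed and 33, 29.1 and 16 CPM in naive DSY-c2, and at 93.9, 117 and 110.2 CPM in primed and 16.2, 13.6 and 17.3 CPM in naive N40. No naive library reached a primed one. It fell by 1.94 ± 0.18 in DSY-c2 (edgeR adjusted p = 2.2e-07) and by 2.67 ± 0.19 in N40 (edgeR adjusted p = 7.15e-09). ZNF185 was at 15.8, 20.7 and 15.8 CPM in primed and 0.736, 0.58 and 0.291 CPM in naive DSY-c2, and fell by 4.88 ± 0.34 there and by 4.45 ± 0.33 in N40.

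ZNF711 fell by 2.55 ± 0.19 and by 2.32 ± 0.18, from 14.4, 12 and 15.3 CPM to 2.51, 1.52 and 2.33 CPM in DSY-c2 and from 11.5, 9.79 and 11.2 CPM to 2.13, 1.99 and 1.97 CPM in N40. ZNF697 fell by 2.0 ± 0.29 in DSY-c2 and by 3.54 ± 0.30 in N40. Other shared falls were those of ZNF667 (by 2.48 and 1.81), ZNF579 (by 2.09 and 1.94), the imprinted gene ZNF215 (by 2.14 and 1.91) and ZNF214 (by 1.09 and 1.95). ZNF592, a protein that pairs with ZMYND8, fell by 1.23 and by 2.23, and in N40 ZNF385A fell by 2.04.

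**Figure D4:**
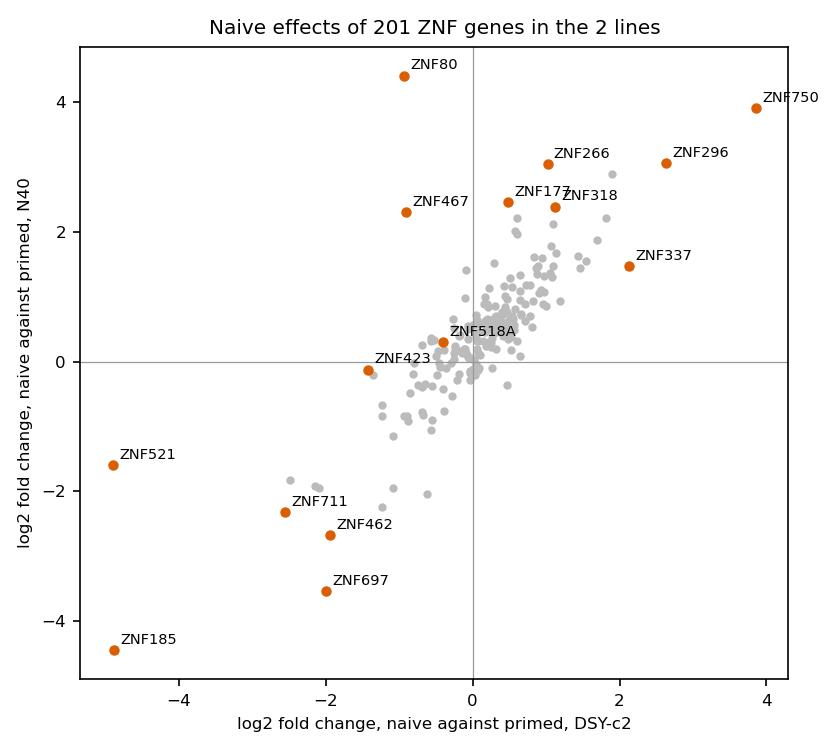
Each point is 1 of 201 ZNF genes, with its log2 fold change in naive against primed cells in DSY-c2 on the x axis and in N40 on the y axis, and named genes in orange. Most points lie at the upper right or lower left, where 72 genes rose and 24 fell in both lines, while ZNF80 and ZNF467 lie to the upper left.

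Of the 76 members that were highest in the morula, 38 rose and 4 fell in DSY-c2 (50% and 5.26%), and all 56 of their calls in N40 were rises (73.7%), with medians of 0.38 and 0.61 on the log2 scale. Among all 1957 genes at 5 CPM that were highest in the morula, 54.4% rose and 9.86% fell in DSY-c2 and 56.0% rose and 11.1% fell in N40, with medians of 0.40 and 0.45, so in DSY-c2 the members' shares were near those of the class. Of 28 members highest in an ICM group, 14 rose and 2 fell in DSY-c2 (50% and 7.14%, against 49.9% and 12.2% of all 3410 such genes), and 19 rose and 1 fell in N40 (67.9% and 3.57%, against 47.9% and 15.4%). Of the 30 highest in epiblast, 4 rose and 16 fell in DSY-c2 (13.3% and 53.3%, against 12.9% and 50.9% of all 2304 such genes), and 9 rose and 8 fell in N40 (30% and 26.7%, against 16.1% and 49.7%). The embryo libraries that place a gene in these classes are not part of the naive comparison, but a class also requires a higher mean than in every ESC group. At the level of single genes, ZNF620 of the morula class rose by 0.88 ± 0.11 and by 1.35 ± 0.11, and ZNF423 of the epiblast class is described below.

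The naive effects differed between the lines for 41 of 201 members (20.4%, against 15.1% of all genes) in a test of the difference itself, 38 of them more positive in N40 (18.9%, against 8.57%) and 3 more positive in DSY-c2 (1.49%, against 6.55%). The share called was between 9.95% and 13.4% without any 1 of 7 libraries: 9.95% without DSY-c2 primed replicate 2, 11.9% without primed replicate 5, 9.95% and 10.4% without naive replicates 1 and 2, 12.4% without N40 primed replicate 2, and 13.4% and 10.4% without N40 naive replicates 1 and 2. All-gene calls fell too, from 2716 of 17957 genes to 2058 of 18346 without DSY-c2 primed replicate 2 and 2261 of 18351 without replicate 5. They numbered 2413 of 18350 and 2199 of 18330 without DSY-c2 naive replicates 1 and 2. They were 2049 of 18336 without N40 primed replicate 2, and 2601 of 18297 and 2349 of 18320 without N40 naive replicates 1 and 2. In most of these runs the members' share was not above that of all genes. ZNF266 was at 1.93, 1.5 and 1.75 CPM in primed and 13.2, 14.3 and 12.6 CPM in naive N40, against 8.16, 6.69 and 6.39 and 11.4, 11.3 and 15.8 CPM in DSY-c2. The naive groups overlapped, and N40 primed cells were lower than all others. ZNF177 was likewise lowest in N40 primed cells, at 7.94, 6.8 and 8.03 CPM in primed and 36.3, 44.8 and 36 CPM in naive N40.

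In ZNF177 the effects were 0.48 ± 0.20 in DSY-c2 and 2.46 ± 0.21 in N40, a difference of −1.98 ± 0.28 (edgeR adjusted p = 0.000376). ZNF423 had its larger effect in DSY-c2, with a fall by 1.42 ± 0.19 in DSY-c2 and −0.12 ± 0.19, not called, in N40 (edgeR adjusted p of the difference = 0.00463). ZNF521 was at 9.99, 31.3 and 6.81 CPM in DSY-c2 primed replicates 2, 4 and 5 and fell by 4.90 ± 0.71, against a fall by 1.59 ± 0.66 in N40, where primed libraries were already low at 1.88, 0.9 and 1.25 CPM. Its call of a difference was lost without primed replicate 4 and without 5 other libraries. ZNF518B, a partner of the H3K9 methyltransferase G9a, rose by 0.61 ± 0.19 in DSY-c2 and by 2.21 ± 0.20 in N40.

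The primed groups were compared with each other, sharing No.40 in 2 of the comparisons. In DSY127 against No.40, 8 members were called (3.98%, against 4.47% of all genes), 7 higher in DSY127 (3.48%, against 2.65%). ZNF704 was at 5.08, 6.78 and 5.76 CPM in DSY127 and 3.23, 2.37 and 1.68 CPM in No.40, a difference of 1.25 whose call was lost without DSY127 replicate 2 or No.40 replicate 2 or 3 (1.04 to 1.22), and ZNF177 differed by 1.12. ZNF512 was the exception, at 186, 191 and 188 CPM in DSY127 and 239.7, 307 and 289 CPM in No.40, a difference of −0.59. The share was 1.49% without DSY127 replicate 2 or 3, or No.40 replicate 3, and 0.995% without No.40 replicate 2. It was 7.46% without No.40 replicate 1, the only No.40 library with the header suffixes L6 and L7. With these groups alone it was 1.51%, and with DESeq2 10.5%. All-gene calls were 377 of 18356 and 399 of 18331 without DSY127 replicates 2 and 3. They were 1165 of 18311, 368 of 18303 and 470 of 18340 without No.40 replicates 1 to 3. These groups alone gave 430 of 16716, and DESeq2 gave 1541 of 17957.

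Primed Tg cells of DSY-c2 did not differ from DSY127 in any member called by edgeR (0 of 201, against 1.88% of all genes, 0.156% higher and 1.72% lower), with 4 at an unadjusted p under 0.05 and 0 called by DESeq2. Over all 17957 genes, 1518 were at an unadjusted p under 0.05 and DESeq2 called 545. The column headers of these groups carry different suffixes, so whatever the suffix stands for and the group cannot be told apart. In N40 primed Tg cells against No.40, 39 members were called (19.4%, against 21.9% of all genes), 21 higher (10.4%, against 8.30%) and 18 lower (8.96%, against 13.6%), or 15 and 21 with total counts as library sizes and 25 and 14 without a low-count filter. Over all genes the split was 993 and 2805 of 17957 with total counts and 1873 and 1816 of 25381 without the filter. ZNF296 was at 5.92, 4.35 and 6.05 CPM in No.40 and rose by 1.07 in N40 primed Tg cells, whose values are given above. ZNF787 rose by 1.05, ZNF385A fell by 1.67 and ZNF266 fell by 1.06. The ZNF266 value was −0.39 without No.40 replicate 1 (edgeR adjusted p = 0.225), and its call was also lost without N40 primed replicate 2 (−0.92) or 3 (−1.03) and in a fit of these groups alone (−1.02). The ZNF385A value was −1.07 without No.40 replicate 2 and no longer called. All 7 calls among 18 SCAN domain genes, a subfamily with a dimerization domain, were rises, ZNF213 by 0.75 among them, a call lost without N40 primed replicate 2 (0.70) and in a fit of these groups alone (0.79). Such a fit called 9.04% of members, against 1748 of 16628 genes. Markers of other cells also moved between these groups: 3 of 5 fibroblast markers fell (median −4.98), as did 3 of 7 primitive endoderm (−3.23), 2 of 5 mesoderm (−2.34) and 2 of 5 trophectoderm markers (−1.68), and none of these lists held a rise. Their part in the ZNF differences was not tested.

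The naive effects were set beside the embryo differences, which come from other libraries. Pearson's r across 200 genes between the naive effect and the epiblast against ICM change was −0.679 for DSY-c2 and −0.63 for N40. Over all 13077 genes at 5 CPM tested in both kinds of library, r was −0.66 and −0.602, near the members' values. Against the early ICM against morula change it was 0.0752 and −0.0657 for the members, and 0.17 and 0.147 for all genes. Of the 41 members that rose in epiblast, 25 fell in naive DSY-c2 (61% of the first list and 58.1% of the second) and 15 fell in naive N40 (36.6% and 57.7%). Of the 13 that fell in epiblast, 9 rose in naive DSY-c2 (69.2% and 12.2%) and 10 in naive N40 (76.9% and 8.62%). Among all genes that rose in epiblast, 61.4% fell in naive DSY-c2 and 58.1% in naive N40, and among those that fell in epiblast 67.9% and 59.4% rose.

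A total of 14 members fell in both naive groups and rose in epiblast: ZNF185, ZNF214, ZNF215, ZNF286A, ZNF300, ZNF462, ZNF496, ZNF521, ZNF579, ZNF644, ZNF658, ZNF687, ZNF711 and ZNF771. The reverse set, higher in both naive groups and lower in epiblast, held 8 members: ZNF177, ZNF296, ZNF330, ZNF414, ZNF428, ZNF598, ZNF639 and ZNF692. These were 7% and 4% of 200 members, against 13.5% and 11.7% of all 13077 genes. Without hatched ICM replicate 1 they numbered 13 and 7. In 4 members, ZNF292, ZNF3, ZNF518B and ZNF710, both naive groups and the epiblast were higher. Fibroblast marker sums also ran higher in primed cells and in epiblast, although in N40 the single markers were split, as given above.

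**Figure D5:**
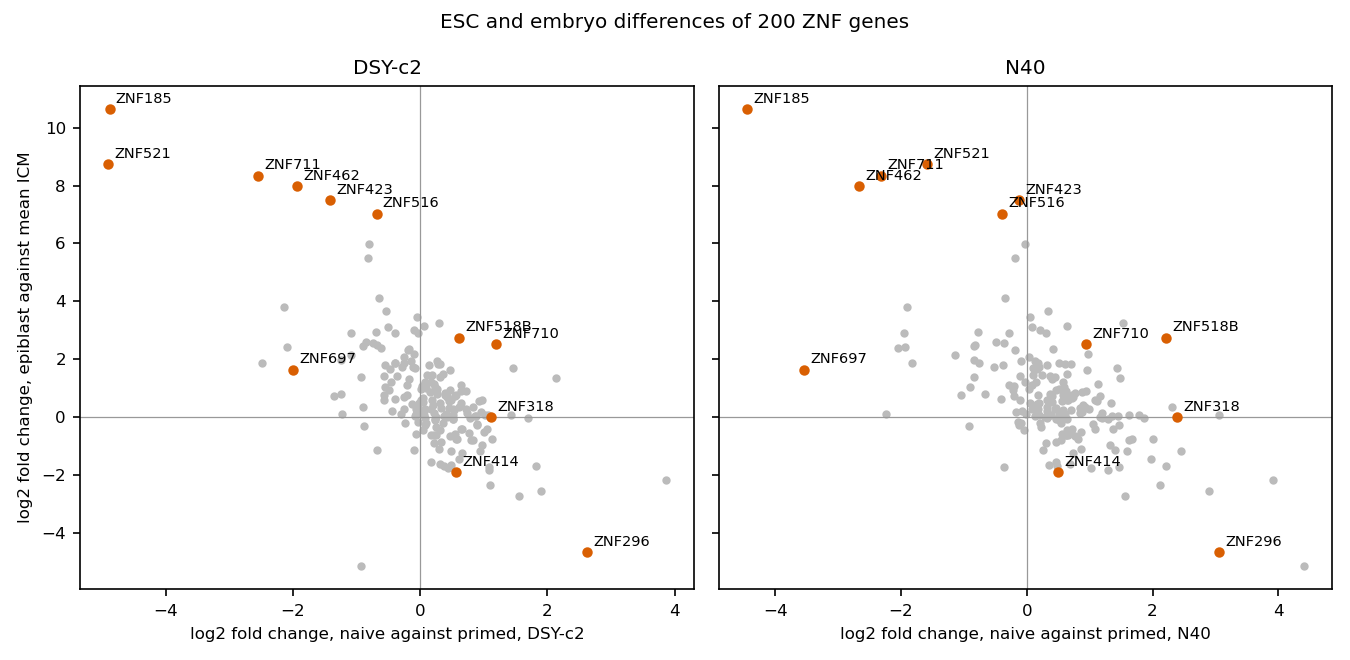
Each point is 1 of 200 ZNF genes, with its log2 fold change in naive against primed cells of DSY-c2 (left) or N40 (right) on the x axis and in epiblast against the mean ICM on the y axis. The points slope downward, with r of −0.679 and −0.63 across genes, ZNF185 at the upper left and ZNF296 at the lower right.

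By known role, the members split. The shares of all genes to read these counts against are 29.6% rising and 29.3% falling in naive DSY-c2, 32.3% and 28.7% in naive N40, and 26.1% and 18.7% in epiblast. Of 10 genes tied to pluripotency or reprogramming, 2 rose and 3 fell in naive DSY-c2, and 4 rose (ZNF296, ZNF217, ZNF398 and ZNF483) and 3 fell (ZNF281, ZNF462 and ZNF521) in naive N40. Of 7 developmental and neural genes, 5 fell and 1 rose in DSY-c2, 2 fell and 1 rose in N40, and 4 rose and 1 fell in epiblast. Of 14 genes of chromatin complexes, 6 fell and 5 rose in DSY-c2, 4 fell and 6 rose in N40, and all 7 calls in epiblast were rises. ZNF644, which brings G9a to chromatin, fell by 0.93 ± 0.14 and by 0.84 ± 0.14 in the naive groups and rose by 1.37 ± 0.28 in epiblast.

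Of 7 genes on a list of RNA and ribosome proteins, 3 rose in both naive groups and fell in epiblast. They were ZNF598, ZNF330, a nucleolar protein, and ZNF639, a transcription factor. Of all genes at 5 CPM tested in both kinds of library, 11.7% had this pattern. In the rest of the list, ZNF385A fell in naive N40, and ZNF207, ZNF326 and ZNF346 were called in neither line. ZNF598 rose by 0.66 ± 0.13 in DSY-c2 and by 0.73 ± 0.13 in N40. Of 5 imprinting genes, ZNF597 rose and ZNF202 and ZNF215 fell in both lines. ZNF445, a KRAB protein that maintains imprints, was not called in either line (−0.24 ± 0.15 and 0.24 ± 0.15), but its ESC and embryo libraries did not overlap. It was at 34.9 to 66.2 CPM over 18 ESC libraries (median 49.5 CPM) and at 0 to 4.33 CPM over 21 embryo libraries, 12 of them at 0.

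ZNF483, with KRAB and SCAN domains, was at 5.27 to 19.6 CPM in ESCs and at 0 to 2 CPM in embryos, 14 of them at 0. In all, 13 members were higher in every ESC library than in every embryo library (6.47%, against 6.19% of all genes), and ZNF276 alone was lower in every ESC library (0.498%, against 1.11%), shares near or under those of all genes. Only 3 of 24 genes listed as transposon repressors or human naive KRAB genes had a marmoset symbol at this level. They were ZNF274, which marks ZNF gene clusters through SETDB1, ZNF595 and ZNF382. ZNF274 rose by 0.20 ± 0.08 and ZNF595 by 1.0 ± 0.13 in naive N40, while in DSY-c2 the values were 0.06 ± 0.08 and 0.17 ± 0.13.

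The partners of KRAB proteins are not members but share the pathway, and 24 of 30 listed genes could be matched. Of these, 11 rose and 7 fell in naive DSY-c2, 13 rose and 7 fell in naive N40, and 10 rose and 4 fell in epiblast, 75%, 83.3% and 58.3% called against 58.8%, 61.0% and 44.8% of all genes. TRIM28 rose by 0.23 ± 0.09 in DSY-c2 and by 0.58 ± 0.09 in N40, and SETDB1 by 0.31 ± 0.09 and 0.78 ± 0.09. The DSY-c2 change of TRIM28 is of the order of the shift of all genes between scalings (0.03 to −0.13). In epiblast SETDB1 rose by 1.35 ± 0.23, and TRIM28 was at −0.54 ± 0.25, not called (edgeR adjusted p = 0.0917). TASOR, of the HUSH silencing complex, rose by 0.81 ± 0.22 and by 1.44 ± 0.22 in naive cells, whereas UHRF1, which guides maintenance DNA methylation, fell by 1.26 ± 0.11 and by 2.25 ± 0.11.

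Members also sit together on chromosomes. In the gene order of the RefSeq table for the calJac240_pri assembly, used here only for neighbours since the build of the counts is not given in the sources used here, 190 members could be placed and 89 lay in clusters of 3 or more ZNF symbols with at most 5 genes between them. Of these 89, 41 were highest in the morula, against 29 of the 101 outside clusters. Pearson's r over the 13 group means had a median of 0.423 for 36 neighbouring pairs, 0.527 for the 17 pairs with no gene between and 0.199 for all member pairs. For neighbours and clusters of other genes, neither r nor the morula counts were computed. Whether these values are particular to ZNF genes was not tested. The neighbours ZNF394 and ZNF789 (0.86), ZNF558 and ZNF317 (0.851) and ZNF177 and ZNF266 (0.722) were among the most alike, and ZNF467 and ZNF746 the least (−0.448). Similar neighbours may share reads, and whether they did was not tested.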

How the data were processed

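The deposited table holds raw read counts per gene and run, and the authors made them with Trim Galore 0.4.0, STAR 2.5.3a and featureCounts 1.5.2, per the submitters' processing notes, from poly(A)+ RNA (RNeasy, TruSeq Stranded mRNA LT), per the labels' protocols. Genome build and gene models were not given in the sources used here. For each of 39 libraries the 2 run columns were summed (78 columns, 6 further columns not used). Small counts were even in 65.0% of cases between 1 and 49 and in 50.8% from 500 upward, so mates may have been counted separately. A gene symbol was paired with 12660 of 30811 gene IDs (41.1%), and ZNF genes without a symbol are not analysed here.

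Separate fits were made for ESC and for embryo libraries with edgeR 4.0.16 in R 4.3.3 (limma 3.58.1): filterByExpr, TMM, robust quasi-likelihood fits with all groups of a kind sharing the spread, and Benjamini-Hochberg adjustment over 17957 ESC or 16929 embryo genes at 0.05. The edgeR fits were tested on simulated data. The SE after each ± is the absolute log2 fold change divided by the square root of the test's F statistic. It is not a separate estimate of precision. Plain CPM gave the levels. Libraries with the same replicate number did not deviate together, so they were not treated as pairs. Named genes were the 10 largest calls each way in the naive, early ICM and epiblast comparisons, 5 elsewhere, those with the 3 largest shares per group, the highest means and smallest ranges, and list members. Members and lists were chosen with earlier results of these data known. Alternatives were other scalings and low-count filters, DESeq2 1.42.0, halved counts, fits of only the groups compared, a replicate block, a threshold of 10 CPM, every ZNF symbol and leaving out each library. Protein classes and promoters of the members are not analysed here.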

Additional observations from a re-analysis of the deposited data

Results flagged for a closer look

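The naive effect differed between DSY-c2 and N40 for 41 members in edgeR's test of the difference itself. ZNF697 fell more in N40 than in DSY-c2 (difference 1.54 ± 0.40 on the log2 scale, edgeR adjusted p = 0.0158). ZNF214 (0.85) and ZNF618 (0.49) also fell more in N40, although neither call held with every library left out in turn. ZNF177 (−1.98) and ZNF266 (−2.02) rose more in N40, and both calls held.

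ZNF80 (−5.35), ZNF467 (−3.21) and ZNF521 (−3.32) had the largest negative differences among the calls, and ZNF80 and ZNF467 lay at low levels in ESCs. ZNF80 was at 0.203, 0.0314 and 0.0315 CPM in primed DSY-c2, 0.0508, 0 and 0 CPM in primed N40 and 0.332, 0.239 and 0.562 CPM in naive N40, so its fitted difference rests on few counts, and its call was lost without any of 6 single libraries. Its difference was −8.63 without N40 primed replicate 1, still called, and −3.85 without DSY-c2 primed replicate 2, not called. ZNF467 was at 1.05, 1.43 and 0.678 CPM in primed and 0.544, 0.329 and 0.638 CPM in naive DSY-c2, and at 0.47, 0.193 and 0.2 CPM in primed and 1.74, 1.09 and 1.18 CPM in naive N40.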

How the results depend on the processing

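Of 1482 values of 91 results on named genes under alternatives, 1363 kept their direction and side of the threshold, 119 kept the direction but missed the threshold, and 63 results held under every alternative. The share of members called in the naive, epiblast and DSY-c2 primed Tg comparisons stayed within 1.5 times the main one. For the difference of the naive effects it was 13.4% without a low-count filter, 10.9% with only the groups compared and 9.95% to 18.9% with a library left out. For DSY127 against No.40 it was 10.5% with DESeq2, 1.51% with only the groups compared and 0.995% to 7.46% with a library left out. For N40 primed Tg against No.40 it was 9.04% with only the groups compared. For early ICM against morula it was 18.6% with DESeq2, 1.07% with only the groups compared and 1.99% to 4.48% with a library left out. For the F test over ICM stages it was 0.498% without a low-count filter, 0.505% at 1 CPM in 3 libraries, 7.11% with DESeq2, 0.5% with halved counts and 0% to 0.995% with a library left out. DESeq2 called 51.8% over the 7 embryo stages, against 7974 of 16929 genes. All-gene calls moved too. For the difference of the naive effects they were 2254 of 25381 without a low-count filter and 2464 of 17433 with only the groups compared. For the F test over ICM stages they were 93 of 23710 without that filter. They were 88 of 14687 at 1 CPM in 3 libraries and 120 of 16035 with halved counts. The causes were not tested.

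With the replicate number as a block and only the groups compared, 0% of members were called in DSY127 against No.40 and in early ICM against morula, 3.52% in N40 primed Tg against No.40, 54.2% in naive N40 and 25.5% in epiblast, though same-numbered libraries shared only a number. Over all genes the block called 28 of 16716 in DSY127 against No.40 and 0 of 12949 in early ICM against morula. It called 934 of 16628 in N40 primed Tg against No.40, 8776 of 16424 in naive N40 and 7289 of 16588 in epiblast. No paired analysis was possible for the DSY-c2 comparisons, because their groups share only 1 replicate number. Depth limits genes near 0, and fewer genes were detected in embryo than in ESC libraries, fewest in morula and ICM. A value of 0 there does not show that a gene was absent. Fitted epiblast changes of members with few ICM counts depend on the prior count and are no bound.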
